A study of Homo sapiens with 6 samples.

Results

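RT4 is an established human bladder cancer cell line. The comparison set 1 array of spheres formed by drug-treated RT4P cells against 1 array of RT4P-BSE2, a live line grown out of RT4P after 2 serial passages through the blebbishield program, and asked which features of the spheres were absent from the regrown line. These are 2 of the 6 samples of the study, each hybridised once to an Illumina HumanHT-12 version 4 beadchip, and a gene entered when a probe for it was detected (p under 0.01 against the negative control beads) on at least 1 of the pair of arrays. In all, 14856 genes entered. The spheres came from RT4P cells given 1 uM cisplatin with 20 mM lithium chloride for 24 h, then 4 h of transformation, after which pure spheres were isolated. RT4P-BSE2 cells had no treatment at the time of harvest, and no array of RT4P-BSE2 under the drugs was analysed here. The other 4 arrays serve as values beside the pair: untreated RT4P live cells, RT4P blebbishields (the same drugs for 24 h, without the transformation step, and a mix of sphere-forming and non-forming bodies), untreated RT4v6 cells (RT4 carried through 6 serial passages in mice) and untreated PBSHMS cells (a line from the fusion of RT4 blebbishields with human blood mononuclear cells). All were grown in MEM with 10% serum. Drug exposure, the transformation step, the isolation and the sphere state cannot be told apart in this pair, and in bulk RNA fewer cells of a type and less RNA per cell cannot be told apart either.

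Blebbishields are apoptotic cancer cells that keep a bleb-covered body, take up apoptotic bodies by fusion and can round up into spheres from which dividing cells emerge. Cisplatin forms platinum adducts on DNA, and lithium inhibits the kinase GSK3. Several of the gene groups below answer to a sensor protein: the aryl hydrocarbon receptor (AHR) pairs with ARNT and switches on enzymes that oxidise foreign compounds, NRF2 escapes its inhibitor KEAP1 under oxidants and electrophiles and switches on glutathione, thioredoxin and heme enzymes, and interferons act through factors that include STAT2 and IRF9 on antiviral genes.

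A few promoters of members from the AHR, NRF2, interferon and mitotic lists are shown first, as examples that hold the motif known for each list. They were chosen for holding it and are not the members that differed most. Each is the sense-strand window from 250 bases before to 50 bases after the gene's start, from RefSeq on build GRCh38.p14, with the letters of the searched motif in capitals on whichever strand they matched. For CYP1A1 (chr15:74725479-74725778, minus strand), an AHR target, and TXNRD1 (chr12:104215529-104215828, plus strand), an NRF2 target, the capitals mark the dioxin response core GCGTG and the antioxidant response core TGACNNNGC.
CYP1A1: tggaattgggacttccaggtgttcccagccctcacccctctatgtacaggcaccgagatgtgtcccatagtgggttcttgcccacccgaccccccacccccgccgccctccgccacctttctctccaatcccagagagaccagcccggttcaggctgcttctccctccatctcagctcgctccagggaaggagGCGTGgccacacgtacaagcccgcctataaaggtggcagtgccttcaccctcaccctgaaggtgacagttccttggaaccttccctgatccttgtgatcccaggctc
TXNRD1: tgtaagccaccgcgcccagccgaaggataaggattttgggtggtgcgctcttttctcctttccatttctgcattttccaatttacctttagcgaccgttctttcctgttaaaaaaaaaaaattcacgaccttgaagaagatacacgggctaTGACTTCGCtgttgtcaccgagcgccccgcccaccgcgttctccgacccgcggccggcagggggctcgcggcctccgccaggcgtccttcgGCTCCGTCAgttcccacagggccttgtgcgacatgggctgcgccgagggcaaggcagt
For the antiviral genes IFIT1 (chr10:89392373-89392672, plus strand) and ISG15 (chr1:1013247-1013546, plus strand), the capitals mark the interferon response core, GAAA and GAAA with any 2 bases between them, which matched 2 times in each window (the matches overlap in ISG15). For the centromere gene CENPA (chr2:26785806-26786105, plus strand) they mark the cell cycle homology element TTTGAA.
IFIT1: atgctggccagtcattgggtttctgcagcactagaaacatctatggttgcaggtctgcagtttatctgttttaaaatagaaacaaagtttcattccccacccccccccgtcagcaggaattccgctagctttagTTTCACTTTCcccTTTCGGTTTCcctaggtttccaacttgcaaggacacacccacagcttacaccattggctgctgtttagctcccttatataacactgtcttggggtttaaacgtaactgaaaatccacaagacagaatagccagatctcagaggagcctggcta
ISG15: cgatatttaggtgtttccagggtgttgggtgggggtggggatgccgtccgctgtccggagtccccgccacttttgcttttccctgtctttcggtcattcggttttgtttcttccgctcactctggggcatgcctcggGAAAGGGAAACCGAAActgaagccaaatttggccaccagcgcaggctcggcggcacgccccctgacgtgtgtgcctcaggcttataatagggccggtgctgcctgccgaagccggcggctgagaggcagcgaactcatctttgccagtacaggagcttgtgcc
CENPA: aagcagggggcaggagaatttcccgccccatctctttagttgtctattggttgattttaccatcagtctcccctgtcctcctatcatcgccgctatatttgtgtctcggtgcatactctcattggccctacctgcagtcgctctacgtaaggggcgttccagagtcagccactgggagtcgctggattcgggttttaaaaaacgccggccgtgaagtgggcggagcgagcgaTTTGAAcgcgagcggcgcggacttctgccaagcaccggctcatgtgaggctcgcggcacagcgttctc

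GCGTG occurred on either strand in 4 of the 5 AHR target promoters found in the RefSeq table, against 36.3% of the table's 27305 promoters and 50.7% of the 8686 promoters of genes measured in the pair. TGACNNNGC occurred in 8 of 31 NRF2-list promoters, against 13.6% of all and 15.4% of those of measured genes. The interferon core occurred in 18 of 27 promoters of antiviral effectors, against 3.65% of all and 2.95% of those of measured genes. TTTGAA occurred in 19 of 31 promoters of the mitotic list, against 15.4% of all and 9.65% of those of measured genes. CCAAT, another element of mitotic promoters, occurred in 24 of the same 31, against 35.7% and 37.5%. A match describes these letters in this window and is neither a binding site nor a cause.

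Signal quality was similar in the pair. Of 47322 probes, 17593 were detected in spheres and 17271 in RT4P-BSE2, and 14749 to 16733 on the other 4 arrays, with the fewest in blebbishields. Over the 20944 probes detected on at least 1 of the 6 arrays, the log2 signals of spheres and RT4P-BSE2 had a Pearson r of 0.956, against 0.963 for spheres with RT4P live cells and 0.984 for RT4P-BSE2 with RT4P live cells. These are descriptions across probes of arrays that share a chip type and a normalization. All 8 epithelial markers (EPCAM, CDH1, KRT7, KRT8, KRT18, KRT19, ELF3 and GRHL2) were detected on every array, with a mean log2 signal of 11.05 in spheres and 10.74 in RT4P-BSE2. Of 13 lymphoid and pan-leukocyte markers, CD2 and CD79A alone were detected in the pair, at log2 signals of 5.14 to 5.44, and PTPRC and the CD3 genes were not. Of 9 myeloid markers, 5 were detected on both arrays, CD68 as the brightest at 8.01 in spheres and 7.68 in RT4P-BSE2. No fibroblast marker of 9 and 1 endothelial marker of 6, VWF, was detected, at 7.39 in spheres and 6.29 in RT4P-BSE2.

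Of the 14856 genes, 461 (3.1%) were at least 2-fold higher in spheres and 629 (4.23%) at least 2-fold lower, so that 7.34% differed in either direction and 13766 lay within 2-fold. At 4-fold the counts were 69 (0.464%) higher and 139 (0.936%) lower. The 2-fold shares of all genes, 3.1% higher and 4.23% lower, are the background for every list count below. The median difference, spheres minus RT4P-BSE2 throughout, was 0.01 on the log2 scale and the median size of a difference 0.29. Just outside and just inside the 2-fold limit, 211 genes were 1.8 to 2-fold higher and 133 were 2 to 2.2-fold higher. On the lower side these counts were 229 and 166. With 1 array on each side there is no replicate error, no test was made and no p-value exists for any gene or list. A gauge of measurement scatter came from 3361 genes with a second detected probe: the spread between probes of a gene was 0.31 (SD, log2), and the second probe had the same direction for 272 of the 279 such genes past 2-fold. It covers probe error and not the variation between cultures. Genes undetected on one array are given as "at least" a fold, computed against that array's lowest detected signal. Of the genes past 2-fold, 74 higher and 104 lower are such bounds.

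**Figure D1:**
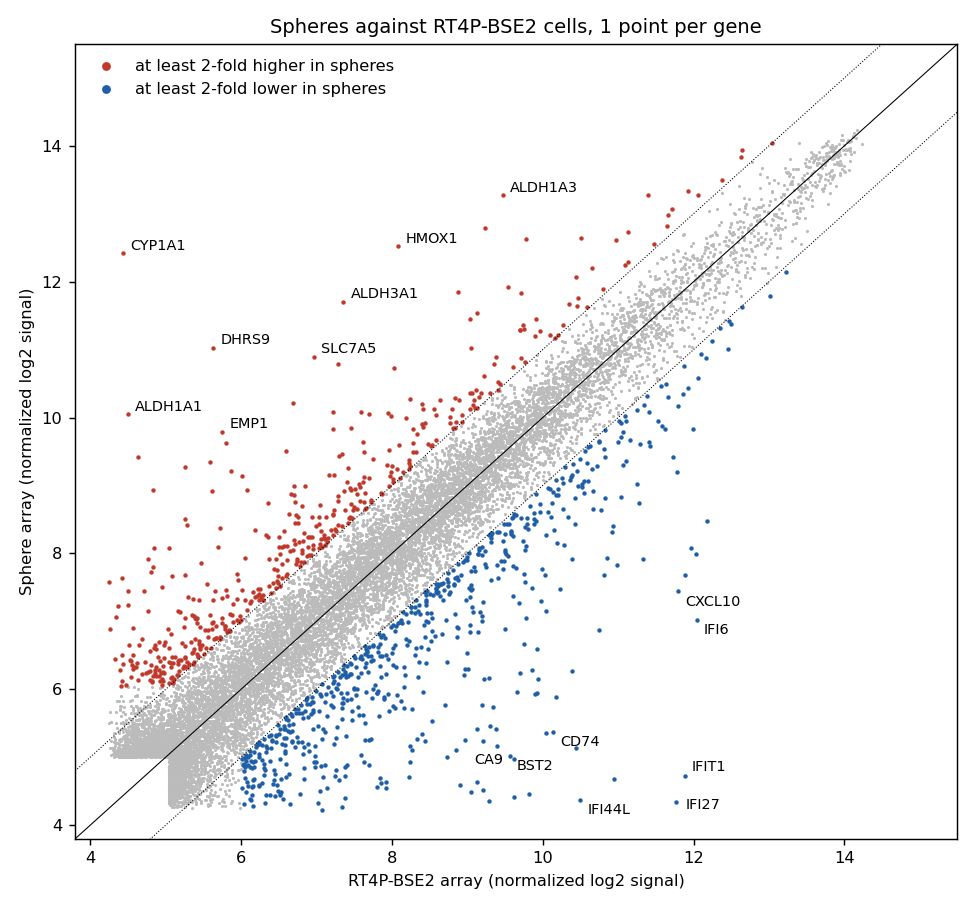
Normalized log2 signal of 14856 genes on the RT4P-BSE2 array (x axis) and the sphere array (y axis). The solid line marks equal signal and the dotted lines 2-fold. Red points are the 461 genes at least 2-fold higher in spheres and blue points the 629 at least 2-fold lower. CYP1A1 lies farthest above the lines and IFIT1 and IFI27 farthest below.

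Among the gene lists, the AHR axis had the highest median. All 7 genes listed as AHR targets were measured and at least 2-fold higher in spheres, where 3.1% of all genes were, with a median difference of 2.59. The list and its roles were chosen with earlier results of these data known, so this count describes these 7 genes and is no test of AHR targets. Spheres held the highest signal of the 6 arrays for each of the 7, and for 3130 of all 14856 genes. CYP1A1, the best known AHR target and an oxidiser of aromatic compounds, had a log2 signal of 12.42 in spheres and 4.44 in RT4P-BSE2. On the other arrays it was 4.26 in RT4P live cells, 4.34 in blebbishields, 4.37 in RT4v6 and 4.44 in PBSHMS. CYP1A1 was detected in spheres alone and was at least 167-fold higher there than in RT4P-BSE2. Its relative CYP1A2 was likewise detected in spheres alone, at 7.63, and was at least 6.04-fold higher. CYP1B1, a P450 of the same family, was at 7.36 in spheres, at 5.30 in RT4P-BSE2 and undetected on the other 4 arrays, a 4.18-fold difference. ALDH3A1, an aldehyde dehydrogenase of the cornea and of detoxification, was at 11.70 in spheres and 7.36 in RT4P-BSE2 (20.3-fold) and at 7.16 to 8.62 elsewhere. Of the other targets SLC7A5 is described with the amino acid genes, and 2 were less far apart: NQO1, a quinone reductase that NRF2 also controls, by 3.68-fold, and the glucuronosyltransferase UGT1A6 by 2.14-fold, with UGT1A6 probes that ranged from 0.58 to 1.57 (UGT1A genes share exons). The receptor itself hardly differed: AHR was at 11.41 in spheres and 11.22 in RT4P-BSE2, and its partner ARNT at 5.48 and 5.61. TIPARP, a feedback inhibitor listed with the regulators though AHR is known to induce it too, was level at 8.35 and 8.39. AHRR, the repressor of the receptor and also listed with the regulators, was detected on neither array. With the regulators included, 7 of 11 measured genes of the list (63.6%, against 3.1% of all genes) were at least 2-fold higher.

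The NRF2 list had 17 of 37 measured genes (45.9%, against 3.1% of all genes) at least 2-fold higher in spheres and none lower, with a median difference of 0.94. Spheres held the highest signal of the 6 arrays for 31 of the 37, and for 3130 of all 14856 genes. The glutathione and thioredoxin branch had 6 of 10 genes higher: SLC7A11, the cystine importer, was at 7.91 in spheres and undetected in RT4P-BSE2 (at least 7.33-fold), GCLM and GCLC, which together form the enzyme that starts glutathione synthesis, were 5.22-fold and 3.93-fold higher, and thioredoxin reductase TXNRD1 was 5.15-fold higher. Both TXNRD1 probes gave 2.07 or more. In the heme and iron branch, HMOX1, which degrades heme, was at 12.52 in spheres against 8.09 in RT4P-BSE2. It was at 8.37 in RT4P live cells, 9.53 in blebbishields, 6.93 in RT4v6 and 9.19 in PBSHMS. The sphere value of HMOX1 stood above all others and was 21.6-fold that of RT4P-BSE2, while the ferritin chains FTH1 and FTL were 2.02-fold and 1.69-fold higher. AKR1B10, a reductase of aldehydes and retinal, was at 9.62 in spheres and 5.80 in RT4P-BSE2 (14.2-fold), at 6.73 in RT4P live cells and 6.76 in blebbishields. The NADPH-supplying enzymes ME1 and PGD were 3.82-fold and 2.95-fold higher. Transcripts of the pathway's controllers were level: NFE2L2, which encodes NRF2, was at 10.57 and 10.50, and KEAP1 at 8.43 and 8.44. MAFF, a small MAF partner, was 1.87-fold higher by its brightest probe, but its probes ranged from -0.23 to 0.90.

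Of 16 measured retinoid genes, 3 (18.8%, against 3.1% of all genes) were at least 2-fold higher in spheres and 3 (18.8%, against 4.23%) lower. Among 10 enzymes 3 were higher, 1 was lower and 6 lay within 2-fold, and among 6 carriers, receptors and response genes 2 were lower and 4 within 2-fold. The 3 higher enzymes were among the 12 genes that ranked highest in spheres. DHRS9, a retinol dehydrogenase, was at 11.02 in spheres and 5.63 in RT4P-BSE2, a 42.0-fold difference. Among the rest, DHRS9 was at 6.27 in RT4P live cells and 8.85 in blebbishields and was undetected in RT4v6 and PBSHMS. ALDH1A1, which oxidises retinal, was at 10.05 in spheres and 8.48 in blebbishields and was undetected on the other 4 arrays, so that it was at least 32.1-fold higher in spheres than in RT4P-BSE2. ALDH1A3, an enzyme of the same step, was at 13.27 in spheres and 9.47 in RT4P-BSE2 (13.9-fold), and at 9.89 in RT4P live cells, 10.87 in blebbishields, 6.77 in RT4v6 and 11.32 in PBSHMS. ALDH1A2, the third gene of this family, ran the other way at 6.19 and 7.55 (2.57-fold lower). Of genes named for their response to retinoids, RARRES1 was at 5.77 in spheres and 9.20 in RT4P-BSE2 (10.8-fold lower), and PLAAT4 at 5.62 and 7.61 (3.97-fold lower).

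Other genes from the top of the ranking are known from epithelial surfaces, metabolism and nutrient uptake. EMP1, a membrane protein of epithelia, was at 9.80 in spheres and 5.75 in RT4P-BSE2 (16.6-fold), and between 5.32 and 6.95 on the other 4 arrays. CYP4F3, which inactivates leukotriene B4, was at 9.27 and 5.25 by its brightest probe (16.2-fold), while its other probe gave a log2 difference of 1.03. CEACAM6, an adhesion protein of epithelial tumours, was at 8.93 in spheres and 6.21 in blebbishields, undetected on the other 4 arrays, and at least 14.8-fold higher than in RT4P-BSE2. AADAC, an esterase, was at 9.34 and 5.59 (13.5-fold) and at 7.87 in blebbishields. SLC7A5, the importer of large neutral amino acids, was at 10.89 in spheres, 6.97 in RT4P-BSE2, 7.42 in RT4P live cells, 10.67 in blebbishields, 8.92 in RT4v6 and 7.76 in PBSHMS. The 15.2-fold difference in SLC7A5 thus had blebbishields close to spheres, whereas EMP1 was high in spheres alone.

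SLC7A5 is also a target of ATF4, the transcription factor of the integrated stress response. Of 19 measured genes of that list, 5 (26.3%, against 3.1% of all genes) were higher in spheres and 3 (15.8%, against 4.23%) lower. Among its 12 amino acid and other targets 5 were higher, 2 lower and 5 within 2-fold. Besides SLC7A5, those higher were asparagine synthetase ASNS by 5.30-fold, SLC3A2, the partner chain of SLC7A5, by 2.76-fold, and the serine synthesis enzymes PHGDH and PSAT1 by 2.50-fold and 2.12-fold. DDIT4, an inhibitor of the mTORC1 kinase, was lower, at 10.17 in spheres and 11.80 in RT4P-BSE2 (3.10-fold), as were VLDLR (2.40-fold) and ATF3 (undetected in spheres, at least 2.18-fold). ATF4 itself was at 11.72 and 12.01, and DDIT3 at 7.28 and 7.61, with both highest in blebbishields (13.29 and 10.17).

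p53 targets, which DNA damage by cisplatin is known to induce, were close between the pair. Of 25 measured, GDF15, a secreted stress factor, was the gene at least 2-fold higher (12.62 and 10.97, 3.14-fold), and PMAIP1, a pro-death BCL2-family member, the gene at least 2-fold lower (7.12 and 8.31, 2.28-fold). CDKN1A, the p53-driven cell cycle inhibitor, was at 12.36 in spheres, 11.87 in RT4P-BSE2 and 13.38 in blebbishields. MDM2, the ligase that removes p53, was at 6.53, 6.05 and 7.47 on the same arrays. Both genes were thus highest in blebbishields and within 2-fold between spheres and RT4P-BSE2, and the list's share past 2-fold, 4.00% in each direction, was near the background. The higher share depends on the cut-off: PPM1D and DDB2 lay just under it, at log2 differences of 0.999 and 0.997. With the arrays shifted to equal medians instead, these genes passed it, at 1.08 and 1.07. Against RT4P live cells, 5 of the 25 were at least 2-fold higher in spheres, where 3.08% of 14085 genes were, and none was lower. In RT4P-BSE2, 1 of 25 was at least 2-fold above RT4P live cells, where 1.34% of 13805 genes were.

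**Figure D2:**
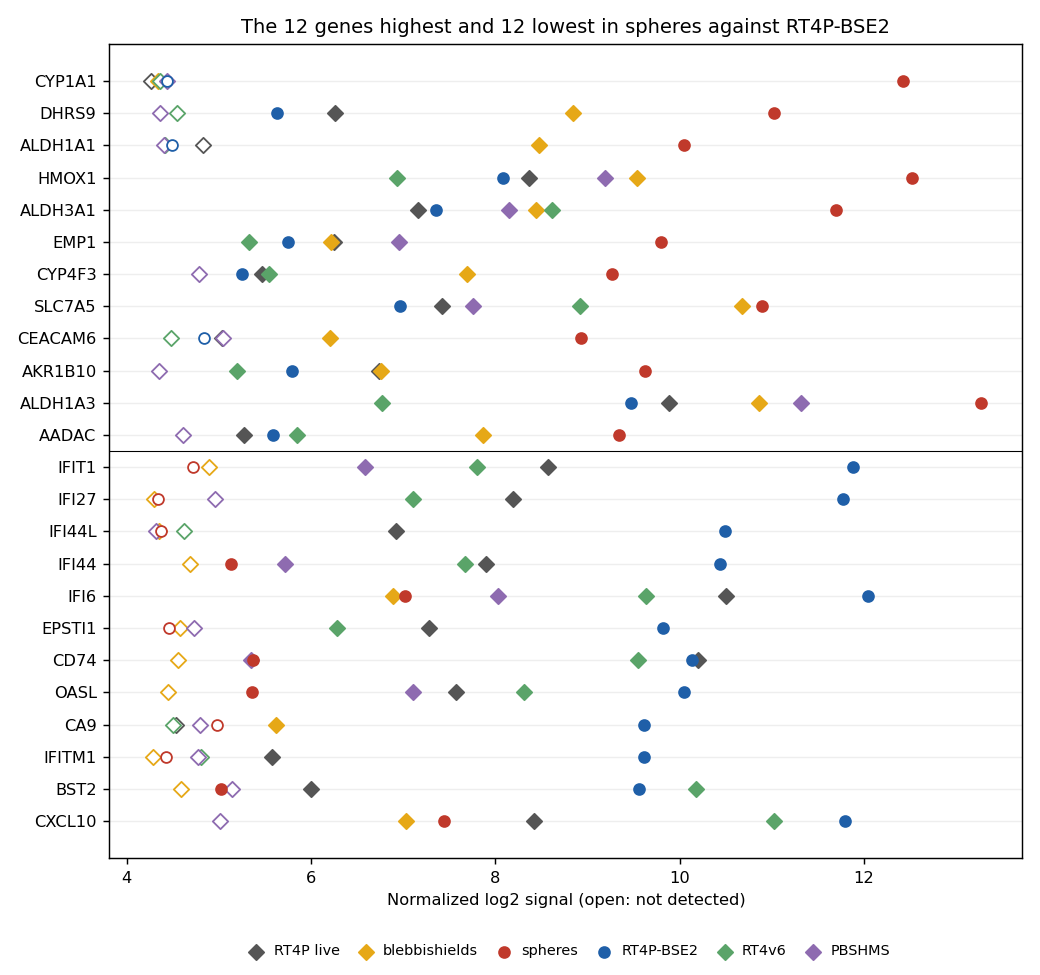
Normalized log2 signal (x axis) of the 12 genes highest and the 12 lowest in spheres against RT4P-BSE2, with 1 symbol for each of the 6 arrays and open symbols where the probe was not detected. For the upper 12 genes the sphere value is the highest of the 6, and for the lower 12 the sphere value lies below that of RT4P live cells except for CA9, which was detected in RT4P-BSE2 and blebbishields alone.

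Interferon-response genes were the list with the most genes lower in spheres. Of 46 measured members, 41 (89.1%, against 4.23% of all genes) were at least 2-fold lower in spheres and none was higher, with a median difference of -2.53. Among antiviral effectors it was 34 of 35, with GBP2 as the exception at 1.91-fold lower. IFIT1, which binds foreign RNA, was at 4.72 in spheres and 11.88 in RT4P-BSE2. It was at 8.57 in RT4P live cells, 4.90 in blebbishields, 7.81 in RT4v6 and 6.59 in PBSHMS. IFIT1 was thus undetected on both arrays of drug-treated cells, intermediate in the other untreated lines and highest in RT4P-BSE2, itself untreated. The gap between spheres and RT4P-BSE2 was at least 118-fold. A second IFIT1 probe also had the lower direction, by 1.02.

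IFI27, an interferon-induced mitochondrial protein, was at 4.34 in spheres, 11.77 in RT4P-BSE2 and 8.19 in RT4P live cells, at least 109-fold lower. The related antiviral genes IFI44 and IFI44L were 39.6-fold and at least 45.1-fold lower. IFI6 was at 7.02 in spheres, 12.04 in RT4P-BSE2, 10.51 in RT4P live cells, 6.89 in blebbishields, 9.63 in RT4v6 and 8.03 in PBSHMS, a 32.4-fold difference. The 2 IFI6 probes gave -5.05 and -5.02. EPSTI1 was at least 28.2-fold lower, OASL, of the oligoadenylate synthetase family, 25.8-fold, and the membrane proteins BST2 and IFITM1 23.2-fold and at least 24.5-fold. The OASL value is that of its brightest probe, and its other probe gave -1.90. BST2, which tethers budding viruses to the cell, was highest in RT4v6 (10.18) and second in RT4P-BSE2 (9.56). ISG15, a ubiquitin-like modifier, was at 7.99 in spheres, 12.03 in RT4P-BSE2 and between 8.03 and 9.03 on the other 4 arrays.

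Sensors and signalling genes followed in 7 of 11 cases, with smaller differences. IRF9, the DNA-binding partner of STAT2, was at 7.92 in spheres, 11.34 in RT4P-BSE2, 10.10 in RT4P live cells, 7.71 in blebbishields, 9.04 in RT4v6 and 8.45 in PBSHMS (10.7-fold lower). STAT2 was 2.69-fold lower. The cytosolic RNA sensors IFIH1 and RIGI were 4.69-fold and at least 6.46-fold lower. The kinase JAK1 and the receptor chain IFNAR1 lay within 2-fold and slightly above the line, at 0.44 and 0.31. RT4P live cells stood between the pair: the list's median was -0.84 for spheres minus RT4P live over 45 genes and 1.86 for RT4P-BSE2 minus RT4P live over 46 genes, differences that share the RT4P live array. RT4P-BSE2 was at least 2-fold above RT4P live cells for 38 of 46 genes, where 1.34% of all 13805 genes measured in that pair were, and spheres at least 2-fold below them for 19 of 45, where 3.38% of 14085 were. RT4P-BSE2 held the highest signal of the 6 arrays for 42 of the 46, and for 2067 of all 14856 genes.

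Some antigen presentation genes and most inflammatory ligands were also lower in spheres. Among MHC class I genes, 5 of 13 measured (38.5%, against 4.23% of all genes) were at least 2-fold lower, 8 lay within 2-fold and none was higher. Those lower were HLA-B by 4.59-fold, HLA-F by 3.42-fold, the immunoproteasome subunit PSMB9 by 3.03-fold, and the peptide transporter genes TAP2 and TAP1 by 2.77-fold and 2.19-fold. B2M, the invariant light chain, was at 13.84 and 13.91. HLA genes resemble each other closely and are polymorphic, so their probes may also read a relative. Of 5 MHC class II genes 1 was past 2-fold and 4 were not, among them HLA-DRA at 7.78 and 8.51. The one past it, CD74, the invariant chain, was at 5.38 in spheres and 10.13 in RT4P-BSE2. It was at 10.20 in RT4P live cells, 4.56 in blebbishields (undetected), 9.54 in RT4v6 and 5.35 in PBSHMS. RT4P-BSE2 thus had the level of the untreated parent, and spheres were 27.1-fold lower.

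Among NF-kB-linked cytokine genes, 9 of 11 measured ligands (81.8%, against 4.23% of all genes) were lower. CXCL10, a T-cell attractant that interferon also induces, was at 7.44 in spheres and 11.80 in RT4P-BSE2 (20.5-fold), and at 8.42 in RT4P live cells. LTB was undetected in spheres and at 9.13 in RT4P-BSE2 and 8.96 in RT4P live cells (at least 17.5-fold), CCL20 was at 6.87, 10.75 and 10.30 on these arrays (14.7-fold), and the neutrophil attractant CXCL1 at 5.11, 8.27 and 8.10 (8.97-fold). IL1A, an alarm cytokine, was at 7.47, 10.22 and 9.77 (6.72-fold). Of 11 ligands, 2 were at least 2-fold above RT4P live cells in RT4P-BSE2, CXCL10 and CXCL6, and the other ligands named here lay within 2-fold of them. NFKB1, a subunit of the factor, was at 10.49 and 10.95. Among 12 regulators and other targets 1 was at least 2-fold lower: UBD, a ubiquitin-like gene induced by inflammatory cytokines, at 5.41, 9.38 and 9.77 in spheres, RT4P-BSE2 and RT4P live cells. Of 20 S100 and secreted defence genes, 6 were lower (30%, against 4.23% of all genes) and none higher. These were 4 of 10 secreted proteins, of which 6 of the 10 values are bounds, and 2 of 10 S100 genes. The largest differences were in the trypsin inhibitor SPINK1 (7.69 and 11.89, 18.4-fold) and S100A8 (5.10 and 8.85, 13.4-fold), while LCN2 was level at 10.21 and 10.35.

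Most mitotic genes were lower in spheres. Of 35 measured G2/M genes, 23 (65.7%, against 4.23% of all genes) were at least 2-fold lower and none was higher, with a median difference of -1.41 and a range from -3.61 to -0.49. Spheres held the lowest signal of the 6 arrays for 29 of the 35, and for 2160 of all 14856 genes. KIF20A, a kinesin of the dividing cell's midzone, was at 5.73 in spheres and 9.34 in RT4P-BSE2. It was at 8.93 in RT4P live cells, 6.40 in blebbishields, 8.26 in RT4v6 and 8.76 in PBSHMS. Both arrays of treated cells were thus low and the 4 untreated ones high, with a 12.2-fold difference in the pair. CENPA, the centromeric histone, was at 5.26 and 8.34 (8.41-fold, probes from -3.07 to -1.68), HMMR was 6.39-fold lower and DLGAP5 4.71-fold lower. Cyclin B1, CCNB1, which drives entry to mitosis, was at 7.14 and 9.17 (4.08-fold). MKI67, the Ki-67 antigen, was dim on all arrays, at 5.31 and 5.80.

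DNA replication genes did not follow. Of 28 measured G1/S genes, 3 (10.7%, against 3.1% of all genes) were at least 2-fold higher in spheres and none was lower. The list's median was 0.41. The helicase subunit MCM5 was at 8.88 and 7.53 (2.54-fold), ORC1, of the origin recognition complex, at 6.87 and 5.56 (2.47-fold), and cyclin E2, CCNE2, at 9.06 and 8.02 (2.05-fold). Here RT4P live cells were at 8.33, 5.88 and 8.70. For all 3 the parent thus lay between the pair. Among D cyclins and CDK inhibitors, 1 of 11 was past 2-fold, the inhibitor CDKN2C, which was undetected in spheres (at least 2.27-fold lower).

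Hypoxia and glycolysis genes were mostly highest in RT4P-BSE2. Of 29 measured, 10 (34.5%, against 4.23% of all genes) were at least 2-fold lower in spheres and 1 (3.45%, against 3.1%) higher. The median was -0.58. RT4P-BSE2 held the highest signal of the 6 arrays for 20 of the 29, and for 2067 of all 14856 genes. CA9, a carbonic anhydrase that hypoxia induces through HIF1, was at 9.62 in RT4P-BSE2 and at 4.98 in spheres. On the other arrays CA9 was at 4.53 in RT4P live cells, 5.62 in blebbishields, 4.50 in RT4v6 and 4.79 in PBSHMS. It was undetected in spheres and at least 24.5-fold lower there, and undetected in RT4P live cells, against which RT4P-BSE2 was at least 22.8-fold higher. The glycolytic enzyme ALDOC was at 6.17, 9.29 and 7.20 in spheres, RT4P-BSE2 and RT4P live cells (8.72-fold between the pair). NDRG1 was at 9.20, 11.78 and 9.89 on the same arrays, BNIP3, which marks mitochondria for removal, at 7.93, 10.38 and 8.29, and PFKFB4, a regulator of glycolytic flux, at 7.68, 10.03 and 8.38. In each of these the parent was nearer to spheres, and RT4P-BSE2 stood apart.

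The exception was EGLN3, an oxygen-dependent hydroxylase of HIF, at 8.37 in spheres and 7.25 in RT4P-BSE2 (2.17-fold higher). HIF1A was at 8.20 and 8.62. The housekeeping glycolysis gene GAPDH was at 13.58 and 13.68, and LDHA, which makes lactate, 1.62-fold lower. The list's median was -0.09 for spheres minus RT4P live over 28 genes and 0.58 for RT4P-BSE2 minus RT4P live over 29. ANGPTL4, a lipase inhibitor also induced by hypoxia and kept on the lipid list, was 4.54-fold lower by its brightest probe, with probes from -2.18 to -0.23.

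**Figure D3:**
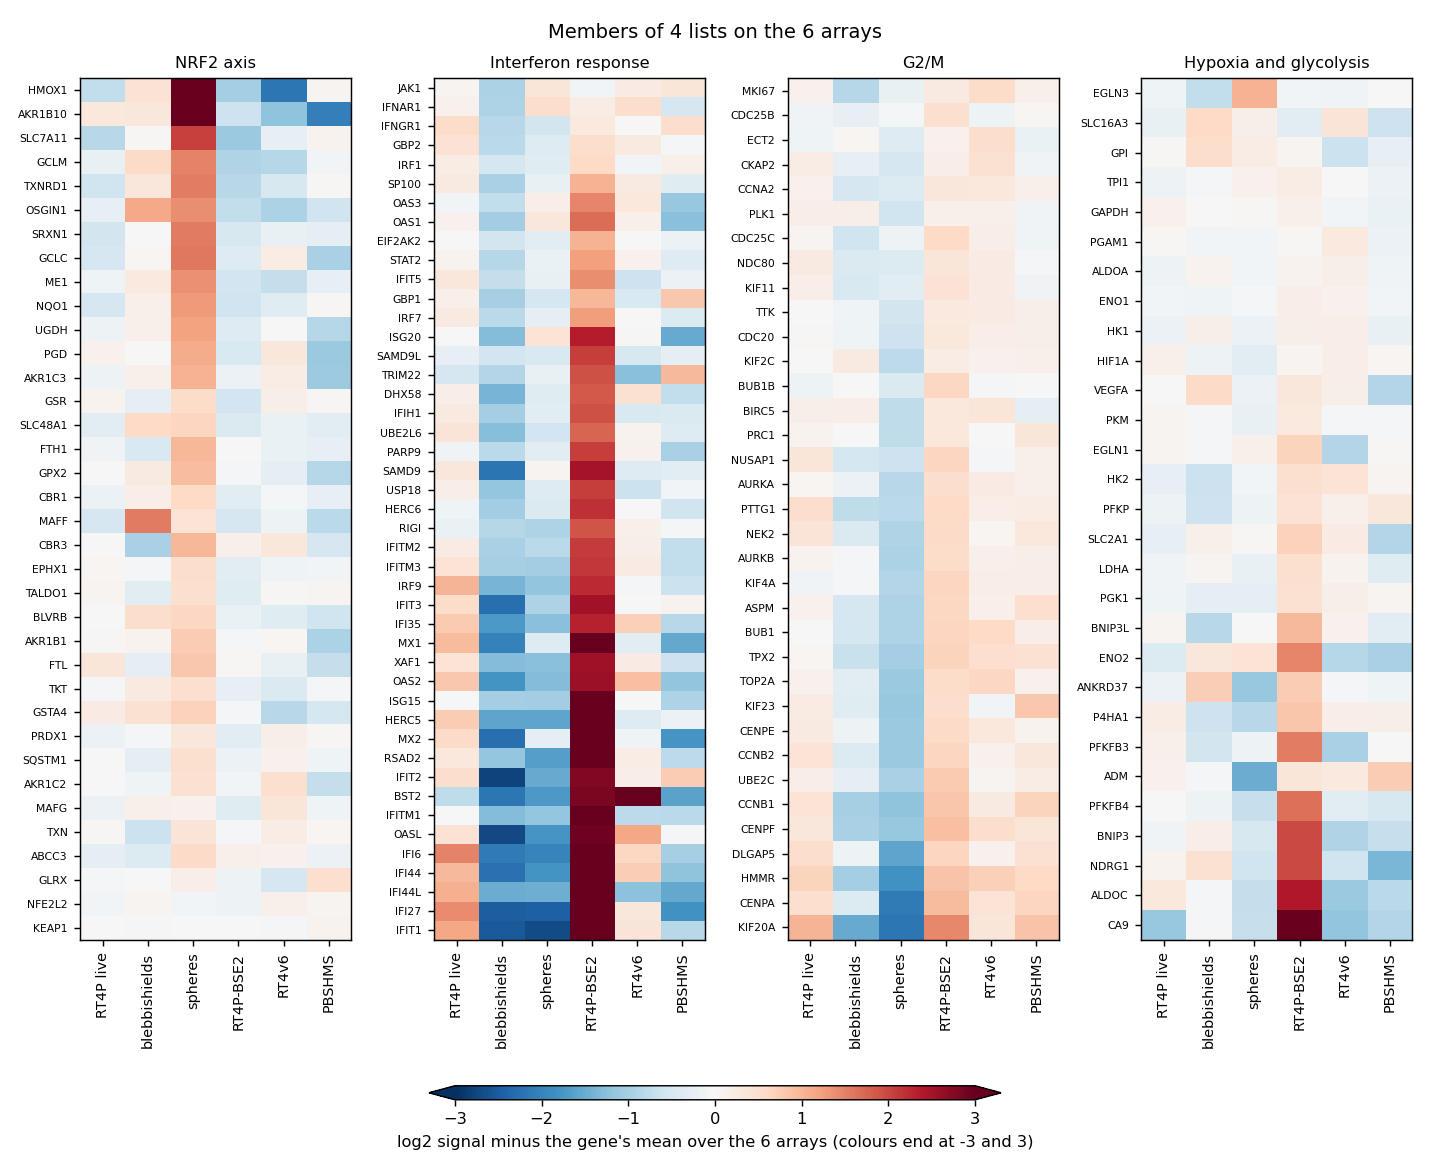
Members of the NRF2, interferon, G2/M and hypoxia and glycolysis lists (rows, not all members shown, ordered by spheres minus RT4P-BSE2) on the 6 arrays (columns). Colour is the log2 signal minus the gene's mean over the 6 arrays, with undetected probes at their measured signal. Red fills most of the sphere column for NRF2 genes and of the RT4P-BSE2 column for interferon genes, and blue most of the sphere column for G2/M genes.

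Of 27 measured cholesterol genes, 22 lay within 2-fold and none was higher, with a median of -0.40. At least 2-fold lower were 5 (18.5%, against 4.23% of all genes). Among them were the synthase HMGCS1 (9.06 and 10.60, 2.91-fold), INSIG1, which holds back the sterol sensor (2.90-fold), and the demethylation enzyme MSMO1 (2.04-fold). The MSMO1 probes did not share a direction, and ranged from -1.03 to 0.24. For HMGCS1, RT4P live cells were at 10.83, so that RT4P-BSE2 was near the parent. SREBF2, the main activator of the pathway, was at 5.13 and 5.06. Of 20 genes of fatty acid synthesis and storage, 2 were higher and 2 lower (10% each, against 3.1% and 4.23% of all genes). AGPAT9, an acyltransferase of glycerolipid synthesis whose symbol is the array's own and was therefore passed over in the ranking, was at 9.42 in spheres, undetected in RT4P-BSE2 and PBSHMS and between 5.37 and 6.83 on the other 3 arrays, at least 20.9-fold higher in spheres. FADS1, a desaturase, was 2.29-fold higher.

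Markers of urothelial differentiation divided. Of 22 measured luminal genes, 4 (18.2%, against 3.1% of all genes) were higher and 5 (22.7%, against 4.23%) lower in spheres. Of 5 measured uroplakins, plaque proteins of the bladder surface, 4 were lower, and UPK1B was within 2-fold at 7.11 and 7.73. UPK1A was at 8.12 in spheres, 10.28 in RT4P-BSE2, 8.72 in RT4P live cells, 8.28 in blebbishields, 10.03 in RT4v6 and 10.39 in PBSHMS. UPK2, UPK3B and UPK3A were 3.03-fold, 2.33-fold and 2.17-fold lower, and for UPK1A and UPK2 the parent was near spheres. FGFR3, a growth factor receptor often mutated in luminal bladder tumours, was 3.41-fold lower. Keratin KRT20, of umbrella cells, was higher in spheres, at 10.26 against 8.89 in RT4P-BSE2 and 6.66 in RT4P live cells (2.58-fold), so that both members of the pair were above the parent. Besides CYP4F3, above, MALL, a lipid raft protein, was 7.54-fold higher and KRT18 2.86-fold, though the second KRT18 probe gave 0.40. The 6 luminal transcription factors measured were all within 2-fold.

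Basal and squamous genes also divided, with 4 of 14 (28.6%) higher and 3 (21.4%) lower, against 3.1% and 4.23% of all genes. Keratin KRT13, of intermediate and squamous layers, was at 10.80 in spheres and 7.28 in RT4P-BSE2 (11.4-fold), 7.84 in RT4P live cells and 10.02 in blebbishields, and was undetected in RT4v6 and PBSHMS. Of 7 measured basal genes, 1 was higher and 3 were lower. The higher one was the keratin KRT15, at a log2 difference of 1.34. KRT17 and the basal transcription factor TP63 were 3.40-fold and 2.98-fold lower. KRT16 was 2.20-fold lower by its brightest probe while its second probe gave 1.30 in the other direction, so its direction is uncertain.

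Genes associated with stem cells gave no common direction. Of 17 measured, the 4 that were higher (23.5%, against 3.1% of all genes) were ALDH1A1 and ALDH1A3 (described with the retinoid genes), KLF4 and ABCG2. KLF4, a pluripotency factor and an immediate early gene, was at 8.91 in spheres, 7.36 in RT4P-BSE2, 5.88 in RT4P live cells, 7.87 in blebbishields, 6.47 in RT4v6 and 6.98 in PBSHMS (2.94-fold). ABCG2, a drug exporter, was at 6.04 in spheres, undetected in RT4P-BSE2 and at least 2-fold higher, at the limit. KIT, a receptor kinase, was lower, at 6.60 in spheres, 9.93 in RT4P-BSE2 and 8.72 in RT4P live cells (10.1-fold). SOX2 was at 5.25 and 5.19.

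Of 28 adhesion and matrix genes, 2 (7.14%, against 3.1% of all genes) were higher and 7 (25%, against 4.23%) lower. Osteopontin, SPP1, a secreted matrix protein, was at 9.83 in spheres, 7.22 in RT4P-BSE2 and 5.24 in RT4P live cells (6.13-fold). CEMIP, which degrades hyaluronan, was at 8.71, 7.05 and 5.43 on these arrays (3.16-fold). For both, RT4P-BSE2 was also above the parent, by 3.94-fold and 3.06-fold. SNAI2, a factor of epithelial to mesenchymal transition, was 5.44-fold lower in spheres (5.72 and 8.17), and the adherens junction cadherin CDH1 was level at 11.97 and 12.03. Of 9 measured cell junction genes, 7 lay within 2-fold and 2, CTNNB1 and CLDN1, were at least 2-fold lower.

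Apoptosis genes were largely level at the RNA. In the BCL2 family 1 of 15 genes (6.67%) was past 2-fold (PMAIP1, above). Among caspases, inhibitors of apoptosis and death receptors 2 of 28 (7.14%) were. Both shares were near the 7.34% of all genes. The 2 were lower: the inflammatory caspase CASP1 (5.97 and 7.82, 3.60-fold) and the mitotic survivin gene BIRC5 (2.10-fold). XIAP was at 6.50 and 6.14. Of 23 measured immediate early genes, 2 (8.7%, against 3.1% of all genes) were higher and 3 (13.04%, against 4.23%) lower. FOS was at 6.95 in spheres, 9.03 in RT4P-BSE2, 7.99 in RT4P live cells and 11.39 in blebbishields (4.24-fold lower). JUNB was 3.33-fold lower and FOSL1 2.56-fold higher. Among 18 Ras and Myc genes BRAF alone passed (2.06-fold lower). MYC was at 10.38 and 10.08. Cathepsin E, CTSE, was at 8.23 in RT4P-BSE2 and undetected in spheres and blebbishields (at least 9.35-fold lower), and its 3 probes ranged from -3.23 to -0.16.

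No gene passed 2-fold among 23 genes of oxidative phosphorylation, 14 endoplasmic reticulum chaperones, 19 YAP targets and cytoskeletal genes and 8 EGF-family ligands and receptors. Over all genes 7.34% did, so lists this short would hold few such genes at that share. Of 14 heat shock genes HSPA1B was higher, by 2.26-fold, and its near-identical copy HSPA1A may share its signal. Of 10 Wnt-response genes the inhibitor DKK1 was higher, by 2.69-fold, at 9.76 in spheres, 8.33 in RT4P-BSE2 and 9.66 in RT4P live cells. DKK1 in spheres was thus at the parental level. Of 7 metallothionein and zinc genes MT1X was higher, by 4.49-fold. Among 27 genes of platinum transport and repair, ABCG2 alone passed.

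Of 142 measured small non-coding RNAs, 24 (16.9%, against 3.1% of all genes) were higher in spheres and 1 (0.704%, against 4.23%) lower. Their median was 0.21, and 41 of the 142 values are bounds. The spliceosomal RNU4-2 was at 10.08 in spheres and 7.23 in RT4P-BSE2, 6.43 in RT4P live cells and 13.01 in blebbishields (7.24-fold), and the ribosomal RNA5S9 at 11.84, 8.87, 8.90 and 13.56 (7.83-fold). Blebbishields were thus highest for both, and spheres second. These RNAs have near-identical copies and lack the poly-A tail of most messenger RNAs, so the values are uncertain, and whether RNA quality differed between the arrays was not tested. Of 81 ribosomal protein genes 5 (6.17%, against 4.23% of all genes) were lower and none higher, with a median of -0.15.

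**Figure D4:**
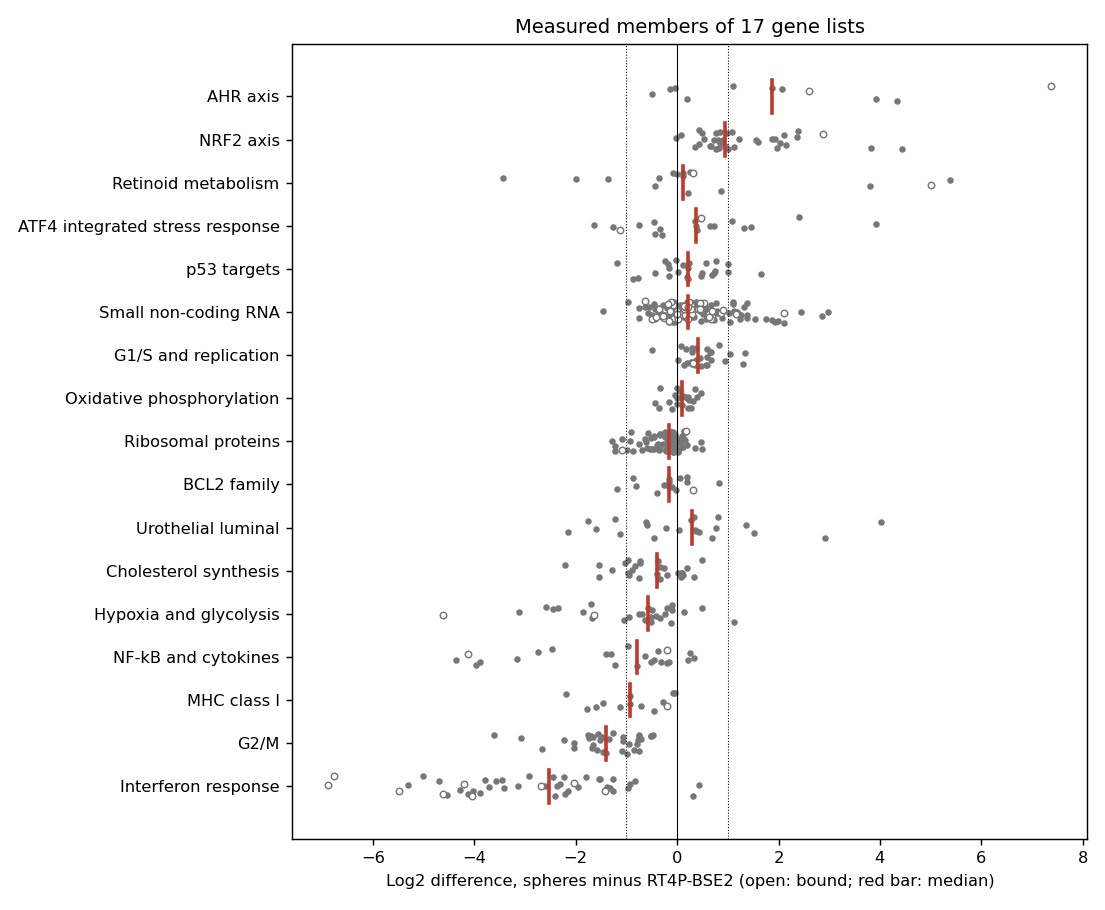
Log2 difference, spheres minus RT4P-BSE2 (x axis), of the measured members of 17 gene lists. Each point is a gene, open points are bounds for genes undetected on 1 array, red bars are list medians and dotted lines mark 2-fold. AHR and NRF2 genes lie to the right, with medians of 1.88 and 0.94, and interferon and G2/M genes to the left, with medians of -2.53 and -1.41.

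Setting each array of the pair beside RT4P live cells sorted the lists. Both comparisons share the RT4P live array and are given as values side by side. Against RT4P live cells, 3.08% of 14085 genes were at least 2-fold higher in spheres and 3.38% lower. In RT4P-BSE2, 1.34% of 13805 genes were at least 2-fold higher than in RT4P live cells and 0.275% lower. NRF2 genes had a median of 0.90 in spheres and -0.16 in RT4P-BSE2, and none of 36 was 2-fold away from RT4P live cells in RT4P-BSE2 while 15 of 37 were higher in spheres. AHR-axis genes had medians of 1.80 and -0.02. G2/M genes had medians of -0.95 in spheres and 0.29 in RT4P-BSE2, with 16 of 35 at least 2-fold lower in spheres and none past 2-fold in RT4P-BSE2. For these 3 lists no measured member was 2-fold away from RT4P live cells on the RT4P-BSE2 array. That is near the low share over all genes, 1.34% higher and 0.275% lower, and is not particular to these lists. Of the 11 AHR-axis genes 9 had a value there, as CYP1A1 and CYP1A2 were undetected on both of these arrays. The interferon list had genes past 2-fold on both sides of the parent, most of them in RT4P-BSE2. There 38 of 46 were higher than in RT4P live cells, against 19 of 45 lower in spheres. Hypoxia and glycolysis genes were past 2-fold mainly in RT4P-BSE2 (7 of 29 higher than in RT4P live cells, against 3 of 28 lower in spheres).

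**Figure D5:**
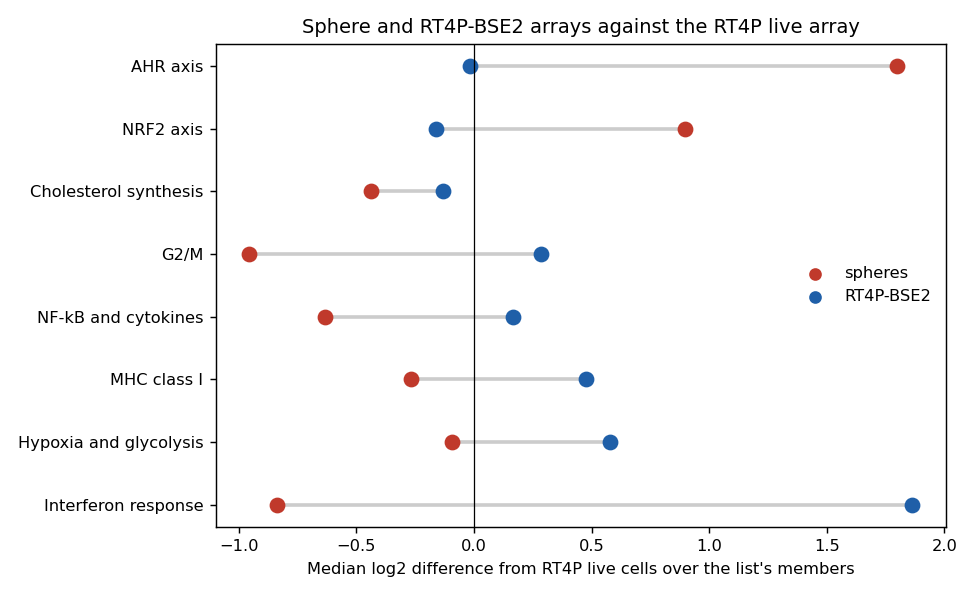
Median log2 difference from RT4P live cells (x axis) over the members of 8 lists, for spheres (red) and RT4P-BSE2 (blue), with a grey line joining the pair. The AHR and NRF2 lists have the blue point near 0 and the red point to the right, the G2/M list has the red point to the left, and the interferon list has red at -0.84 and blue at 1.86.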

How the data were processed

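RNA from 6 samples, 1 array each, was measured on Illumina HumanHT-12 version 4 beadchips. The authors deposited a non-normalized table of bead intensity with a detection p-value per probe and array, per the file headers, exported with GenomeStudio per the submitters' processing notes (version not given in the sources used here), and a second table of their processed intensity values. Samples were grouped by title. No other per-sample columns were left over (0).

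Intensities were background-corrected with nec (offset 16), which placed the negative control beads from the deposited detection p-values, quantile normalized over the 6 arrays and log2 transformed with limma 3.58.1 in R 4.3.3. The offset understates folds of dim genes. Steps were tested on simulated data. Where several probes of a gene were detected, the one with the highest mean over the 6 arrays stands for it. Gene names were brought to current RefSeq symbols: 17590 were current, 2181 older names were updated, 14896 were kept, and 27 had become dates. CDK1 and TIGAR were not analysed here. The genes named are, per direction, the 12 with the largest difference among genes with a log2 signal of at least 8 on the brighter array, all probes in the same direction and an established current symbol (2 genes, AGPAT9 and LOC645638, were passed over for theirs), plus for each list its members with the largest differences and its regulators. Some genes of the lists are counted but not reported here by name. The comparison, the gene lists and the motifs were chosen with earlier results of these data known. The 10 alternatives changed background correction, offset, normalization, detection filter, probe rule or source table.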

Additional observations from a re-analysis of the deposited data

How the results depend on the processing

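With 1 array per group there is no replicate to leave out and no error between cultures. No paired analysis was possible because each group has 1 array. Signal over background limits genes near the detection limit, whose folds are bounds.

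The counts of genes at least 2-fold higher and lower (461 and 629) moved by more than 1.5 times in 3 alternatives: 180 and 295 without background correction, 254 and 396 with an offset of 50, and 190 and 307 in the authors' processed values, whose scale is not documented. The cause was not tested. In the other 7 alternatives they lay within 1.5 times. The share of higher genes among those past 2-fold was 42.3%, and became 54.3% (620 higher, 521 lower) with no normalization between arrays, where the median of all genes was 0.11. All 24 genes of the 2 rankings kept direction and stayed past 2-fold in each alternative that gave them a value, which for detection on both arrays was 15 of 24. Over the alternatives the median ranged from 1.05 to 1.98 for the AHR list, 0.76 to 1.02 for NRF2, -2.58 to -1.99 for interferon, -1.41 to -1.06 for G2/M and -0.58 to -0.44 for hypoxia and glycolysis. KRT16 reversed, from -1.13 to 0.084, when its probes, which disagree in direction, were averaged.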
